A study of Mus musculus with 120 samples.

Results

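The cells described are CD45+ leukocytes sorted from the liver of c57bl mice after 2 weeks on a normal diet (ND) or a diet deficient in methionine and choline (MCDD). They are the wells listed with 1 cell on the week 2 liver plates, 7220 of 44840 such wells in the series. They lie on 19 plates, 9 of ND and 10 of MCDD, out of 118 analysed. The study, whose title concerns XCR1+ dendritic cells in steatohepatitis, sorted immune cells of marrow, blood, liver and lymph node. Both groups share the strain, the sort and the time on the diet, and the labels name no allele, drug or infection.

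CD45 is a phosphatase on the surface of nearly all blood-derived nucleated cells, so a CD45+ sort of liver takes many kinds of leukocyte at once. These include resident macrophages (Kupffer cells), monocytes, neutrophils, dendritic cells, natural killer cells, T cells and B cells. Leukocytes differ in the RNA they hold: resting lymphocytes are small and give few detected genes, while activated lymphocytes, macrophages and dendritic cells give more. Without methionine and choline the liver cannot export fat well, and mice on MCDD develop steatosis, liver inflammation and influx of monocytes, with weight loss, and without the obesity and insulin resistance common in human fatty liver disease.

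Each well gave 2 numbers, the genes detected and a total count, and the comparison asks whether diet changed how these were distributed over the cells of a plate. No value per gene or surface marker was analysed here, so no gene, cell type or marker of the sort can be named or checked. A shift in the makeup of the leukocytes and a change of RNA per cell cannot be told apart. The gene number is not corrected for depth.

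On MCDD the distribution of genes over the wells of a plate was narrower than on ND by its 90th to 10th percentile ratio. More wells held at least 500 and under 1000 genes, 35.6% ± 5.6 (SD, n = 10 plates) against 28.3% ± 4.9 (n = 9). The ratio of a plate's 90th to its 10th percentile of genes averaged 8.66 ± 2.35 on MCDD and 15.1 ± 7.3 on ND. The log2 difference in this ratio was -0.76 over all cell wells and -0.16 over wells with at least 100 genes, which did not pass (adjusted p = 0.161, exact permutation test). It did not pass in rows A to H alone either, nor for the 75th to 25th percentile ratio. The level of genes, a separate measure, gave no detectable difference at a given total, 0.0059 ± 0.16 (SE) on the log2 scale. The median of genes over all wells did not pass either (0.19 ± 0.10, adjusted p = 0.0919, exact permutation test). Neither did the upper and lower spread of genes at a given total (-0.07 ± 0.04 and 0.08 ± 0.08). All of these plates were processed in 4 sequencing batches, named SB12, SB15, SB16 and SB19, and every batch held both diets, so diets were compared within batches.

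The plates are named by diet and by the number in their label. Batch SB12 held MCDD 1.6, MCDD 2.6 and ND 2.6. Batch SB15 held MCDD 1.5 and 2.5 and ND 1.5 and 2.5. Batch SB16 held 4 plates of each diet: MCDD 1.1, 2.1a, 2.1b and 2.2, and ND 1.1, 2.1, 1.2 and 2.2. Batch SB19 held MCDD 1.3 and 2.3 and ND 1.3 and 2.3. The number 2.1 stands on 2 MCDD plates, and the letters a and b only keep them apart. Separate mice are not stated for the plates, so a p-value reflects only plate-to-plate spread, part of which may be technical.

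Every plate had 380 wells with a cell and 4 listed as empty, and the same 380 cell barcodes served all 19 plates. The sum of totals over the cell wells of a plate ran from 7727125 on ND 1.1 to 48743533 on MCDD 1.1, with a median of 22191554. For the share with at least 500 and under 1000 genes, the 95% Wilson interval of 1 plate had a half-width of up to 4.93 points, counting error only. Empty wells had a median of 16 to 53.5 genes on 18 plates. On ND 2.2 that median was 643.5 genes, more than in its cell wells (458), so the listing of empty wells was not borne out on that plate. The median over 4 wells can hide a single one. The richest empty well held 1167 genes on MCDD 2.6, 812 on ND 2.2 and 325 on MCDD 1.1. MCDD 1.1 had empty wells with a median total of 64268.5, near the 64584 of its cell wells, but with 53.5 genes. Other SB16 plates had high empty-well totals too. Their medians were 26526.5 on MCDD 2.2 (38890.5 in its cell wells), 20119.5 on ND 1.2 (37651) and 15910.5 on MCDD 2.1a (20275.5). Over all 19 plates the middle value was 5886.5. How much of the total came from cells was not tested. Without ND 2.2 the diet difference in the share with at least 500 and under 1000 genes was 7.33 points (adjusted p = 0.00741, exact permutation test), and without MCDD 1.1 it was 7.37 points (adjusted p = 0.0116, exact permutation test).

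Gene numbers varied more between the cells of a plate than between plates. The plate median ran from 338.5 to 572 genes on MCDD, with a middle value of 462.75, and from 290.5 to 593.5 on ND, with a middle value of 403.5. Most of the range of medians was thus shared by the diets. The richest well of each plate held between 1944 genes (MCDD 2.1a) and 4183 genes (ND 1.2). The cumulative curves per plate show a longer lower tail on several ND plates. Towards the top the order of the diets varies. ND 2.5 (90th percentile 779 genes) lies to the left of the MCDD plates of its batch. ND 1.3 (1434.8) lies to the right of MCDD 1.3 (974) and MCDD 2.3 (1029.2). In SB16, ND 2.1 (1279.1), ND 1.2 (1390.7) and ND 2.2 (1234.3) lie to the right of every MCDD plate.

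**Figure D1:**
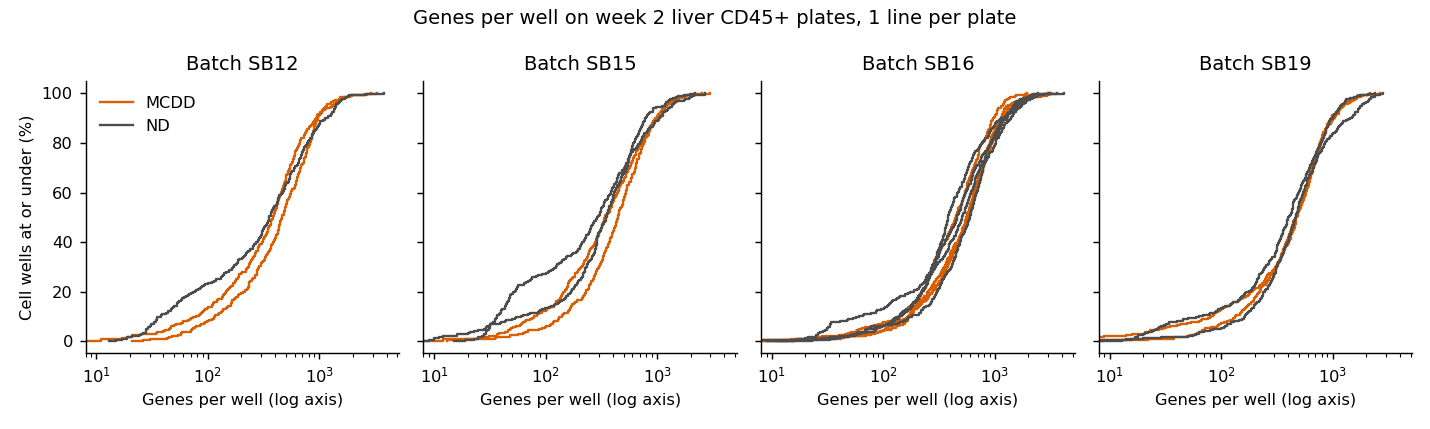
Share of the 380 cell wells of each plate (vertical axis, %) with at most the number of genes on the horizontal log axis, by sequencing batch, with wells under 8 genes drawn at 8. Grey lines are ND plates and orange lines MCDD plates. Averaged over batches, the MCDD share at or under a gene number was lower at 393 genes and higher at 1255 genes. The averaged curves crossed between 842 and 844 genes.

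The curves of the 2 diets were furthest apart at 393 genes. At or under that number lay 41.2% of MCDD wells and 47.2% of ND wells, and the gap averaged over batches was 6.59 points. The gap was of the same sign in each batch: the MCDD minus ND difference in the share at or under 393 genes was -7.89 points for SB12, -10.1 for SB15, -5.33 for SB16 and -4.61 for SB19. This largest gap did not pass the test (adjusted p = 0.146, exact permutation of the diet labels within batch, with 7560 relabellings). The averaged curves crossed between 842 and 844 genes. Beyond the crossing the widest gap was 3.14 points, at 1255 genes, which 5.26% of MCDD wells and 8.39% of ND wells exceeded. In the averaged curves the MCDD shares were thus the smaller ones at both ends, although neither end passed as a class of wells.

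Taken percentile by percentile, the difference changed sign along the distribution. The MCDD minus ND difference in log2(genes + 1) was 0.61 ± 0.31 (SE) at the 5th percentile, 0.63 ± 0.25 at the 10th and 0.37 ± 0.19 at the 25th. It was 0.19 ± 0.10 at the median, 0.07 ± 0.07 at the 75th, -0.14 ± 0.08 at the 90th and -0.17 ± 0.08 at the 95th. None of the 7 percentiles passed after adjustment over the 7 (adjusted p = 0.0919 for the 5th, 10th, 25th, 50th and 95th, exact permutation test). The median of genes was higher on MCDD in 4 of 4 batches and the 95th percentile lower in 4 of 4. The 5th percentile was not lower on ND in SB19, where the difference was -0.16.

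**Figure D2:**
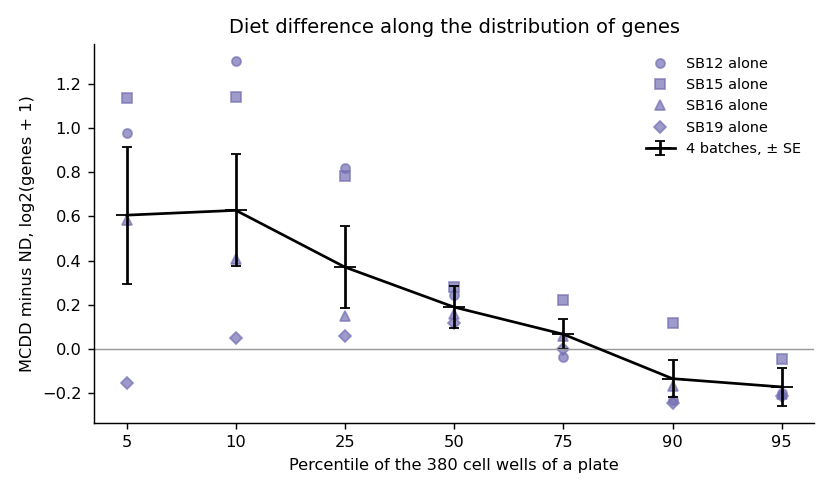
MCDD minus ND difference in log2(genes + 1) (vertical axis) at 7 percentiles of the 380 cell wells of a plate (horizontal axis). Symbols are single sequencing batches and the black line is their average with its SE: it falls from 0.63 at the 10th percentile to -0.17 at the 95th.

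The spread itself differed between diets. The log2 ratio of the 90th to the 10th percentile was 2.52 at the lowest, 3.00 at the median and 3.59 at the highest over the 10 MCDD plates. Over the 9 ND plates it was 2.95, 3.95 and 4.85. The 2 ranges overlapped, and 5 ND plates (2.6, 2.5, 2.2, 1.5 and 2.3) lay above every MCDD plate. These 5 had the lowest 10th percentiles of all plates, 37.9, 37, 61, 59.5 and 62.7 genes in that order. Empty wells had medians of 25 genes on ND 2.6, 31.5 on ND 2.5, 20 on ND 1.5 and 25 on ND 2.3. The high ratios of these plates thus rest on wells with few genes. The difference was -0.76 ± 0.22 (SE; adjusted p = 0.00688, exact permutation within batches). It was negative in 4 of 4 batches, with -1.54 for SB12, -1.03 for SB15, -0.57 for SB16 and -0.30 for SB19. Leaving out each plate in turn gave -0.86 to -0.62 and kept the call each time, with the largest adjusted p without ND 2.6 (0.0333, exact permutation test). The narrower ratio of the 75th to the 25th percentile did not pass (-0.30 ± 0.17, adjusted p = 0.104, exact permutation test).

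When wells with under 100 genes were removed, the difference in the 90th to 10th percentile ratio was -0.16 and no longer passed (adjusted p = 0.161, exact permutation test). The spread of the total was narrower on MCDD as well, with a difference of -0.60 ± 0.15 on the log2 scale (p = 0.0329, exact permutation test, a measure added after the data had been seen). That narrowing of the total was -1.37 for SB12 and -1.63 for SB15, against -0.07 for SB16 and -0.05 for SB19. The part of the total's spread in the result for genes was not tested.

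Sorted into classes of gene number, the wells with at least 500 and under 1000 genes carried the difference that passed. These wells are the upper middle of the distribution, and 5 plates, all in SB16, had their median among them. On the MCDD plates their share was 26.1% at the lowest, 36.2% at the median and 41.6% at the highest. On the ND plates it was 21.3%, 28.2% and 37.1%. In batches SB12, SB15 and SB19 every MCDD plate lay above every ND plate of its batch, and in SB16 the ranges overlapped through ND 1.2 (37.1%), which lay above MCDD 2.1a (35.5%). The difference was 7.67 ± 1.99 points (SE; exact permutation p = 0.00582 after adjustment over the 4 classes). The batches gave 6.97, 6.32, 8.42 and 8.03 points in the order SB12, SB15, SB16, SB19. Leaving out each plate in turn gave 6.82 to 8.39 points, and all 19 values passed.

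The other classes did not pass. Wells with under 100 genes made up 7.97% ± 3.63 on MCDD and 12.7% ± 8.0 on ND, a difference of -5.39 ± 2.09 points (adjusted p = 0.0635, exact permutation test). That difference was -12.4 points in SB12 and -11.3 in SB15, but -2.96 in SB16 and 0.92 in SB19. Wells with at least 100 and under 500 genes were the most common class on both diets, 45.3% ± 6.4 on MCDD and 45.4% ± 6.9 on ND. Wells with at least 1000 genes made up 11.2% ± 3.4 and 13.7% ± 4.7, a difference of -2.31 ± 1.49 points (adjusted p = 0.160, exact permutation test), with the opposite sign in SB15 (1.18). With 16 of the planned tests adjusted together, 2 passed the exact permutation test. They were the spread (adjusted p = 0.0275) and the class of at least 500 and under 1000 genes (adjusted p = 0.0233). This joint adjustment left out the planned tests of the gaps, of single deciles of the total and of genes at a given total between weeks.

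The upper side of the distribution was also described by the ratio of the 95th percentile to the median, a measure chosen after the values had been seen, so its p is not that of a planned test. On the MCDD plates this ratio was 2.34 at the lowest, 2.68 at the median and 3.54 at the highest. On the ND plates it was 2.89, 3.81 and 3.95. Within each batch every ND plate lay above every MCDD plate. In SB16, the batch with 4 plates of each diet, the log2 ratio was 1.23 to 1.47 on MCDD and 1.53 to 1.96 on ND. In SB19 it was 1.38 and 1.41 on MCDD and 1.53 and 1.93 on ND. The diets came closest in SB16. The difference was -0.36 ± 0.08 (SE) on the log2 scale, with p = 0.000132, the smallest the exact permutation test can give (adjusted p = 0.000265 over the upper and lower ratio). It is not a difference of the upper end alone: the median differed by 0.19 and the 95th percentile by -0.17. Neither passed by itself (adjusted p = 0.0919 for each, exact permutation test). The lower side, the ratio of the median to the 10th percentile, differed by -0.44 ± 0.22 and did not pass (adjusted p = 0.0776, exact permutation test). In wells whose total lay in the middle of their batch the upper ratio differed by -0.19 (adjusted p = 0.00661, exact permutation test).

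**Figure D3:**
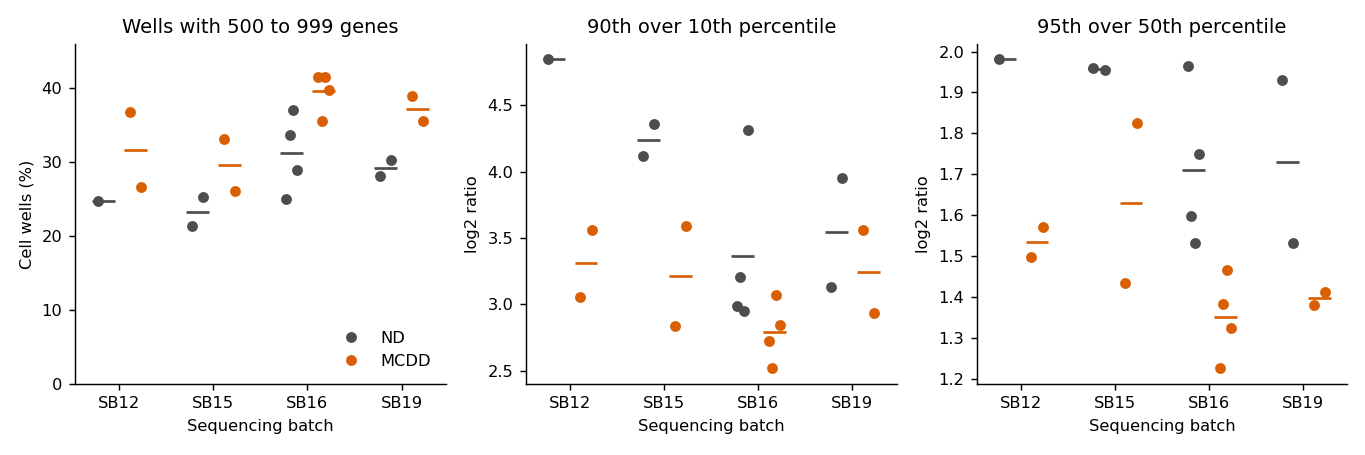
Per plate, the percentage of wells with at least 500 and under 1000 genes (left, %), the log2 ratio of the 90th to the 10th percentile of genes (middle) and that of the 95th to the 50th (right), by sequencing batch, with bars at the group means. Points are plates, grey for ND and orange for MCDD: in the right panel no MCDD plate reaches an ND plate of its own batch.

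The total was compared in the same way as a measure of depth, because more counts per well give more detected genes. On several SB16 plates empty wells also had high totals, so there the total does not measure the cell alone. That limit holds for genes at a given total as well. The plate median of the total was 20275.5 to 64584 on MCDD, with a middle value of 35472.75. On ND it was 12098 to 39539, with a middle value of 33251.5. The difference was 0.25 ± 0.28 (SE) on the log2 scale and did not pass (p = 0.322, exact permutation test). The largest gap between the distributions of totals was 8.23 points, at a total of 15946 (adjusted p = 0.307, exact permutation test). The 95th percentile of the total differed by 0.03 ± 0.32 on the log2 scale, an average of batches of opposite sign (-0.50 for SB12, 0.05 for SB15, 0.39 for SB16 and -0.33 for SB19).

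Genes at a given total were taken from the median of log2(genes + 1) in each decile of the total of a batch, averaged over deciles. A decile with under 5 wells on any plate of a batch was left out for that batch, as was the top decile of SB16. On the MCDD plates this level was 8.24 at the lowest, 8.51 at the median and 9.02 at the highest, and on the ND plates 8.01, 8.58 and 9.48. The range of the MCDD plates lay inside that of the ND plates. The difference was 0.0059 ± 0.16 (SE, p = 0.967, exact permutation test), 0.10 for SB12, 0.07 for SB15, -0.03 for SB16 and -0.05 for SB19. Its 95% interval, from the SE with 11 degrees of freedom, ran from -0.34 to 0.35, so equality is not shown.

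No decile differed. From the first to the tenth the differences were 0.20, 0.17, -0.05, 0.03, 0.07, -0.0038, -0.04, -0.06, -0.17 and -0.13, with adjusted p of 0.956 or more in the exact permutation test. The tenth rests on 11 plates in 3 batches, without SB16. In the fifth decile of SB19, totals from 29887.2 to 38502, the plate medians were 436.4 and 472 genes on MCDD and 428.5 and 470 on ND. In the top decile of SB19 they were 985.5 and 1291.4 on MCDD against 1085 and 1766.5 on ND. The slope of log2 genes on log2 total was 0.67 ± 0.10 (SD) on MCDD and 0.72 ± 0.05 on ND, a difference of -0.06 ± 0.03 (SE, p = 0.0839, exact permutation test). The 4 MCDD plates of SB16 included the 3 lowest slopes of all, 0.49 on MCDD 1.1, 0.55 on MCDD 2.1a and 0.57 on MCDD 2.2. They also included the highest, 0.78 on MCDD 2.1b. The 3 plates with the lowest slopes had high empty-well totals, as had ND 1.2, whose slope was next (0.62). ND 2.2 had such totals too, with a slope of 0.77. Whether these totals bear on the slope was not tested.

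**Figure D4:**
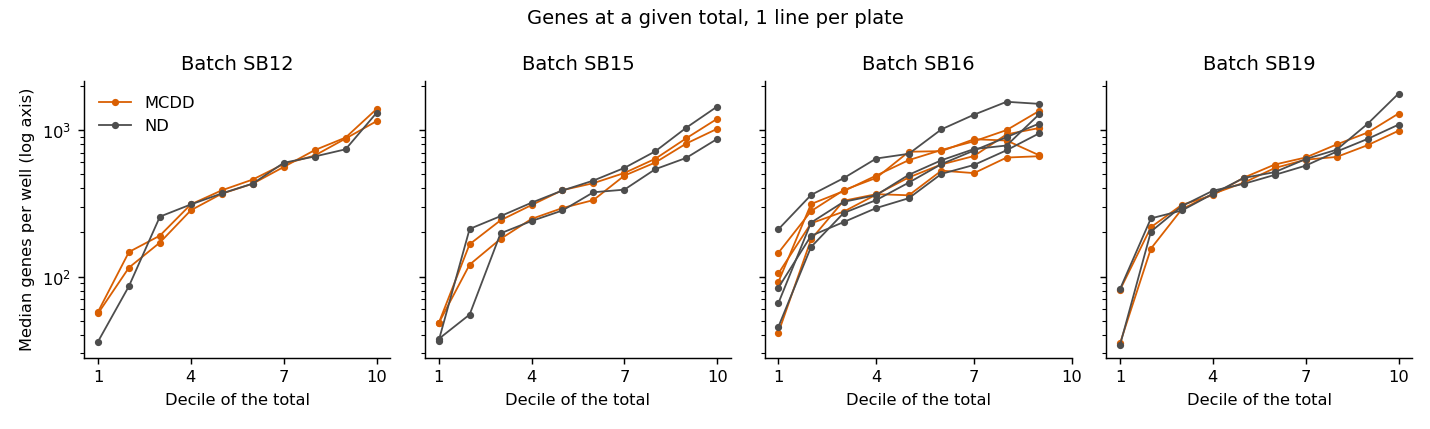
Median genes per well (vertical log axis) in each decile of the total (horizontal axis, deciles set within a batch), 1 line per plate, grey for ND and orange for MCDD. The lines of the 2 diets interleave in all 4 batches. A decile with under 5 wells on any plate of a batch has no point for that whole batch, as for the top decile of SB16.

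A fixed window of the total gave a like result. Between 54 and 121 wells per plate had a total of 20000 to 40000. Their median was 304 genes at the lowest, 423.5 at the median and 657 at the highest over the MCDD plates. Over the ND plates it was 304, 405 and 761. The difference was 0.04 ± 0.14 (SE, p = 0.732, exact permutation test). The spread of genes at a given total, in 5 bins of the total, differed by -0.07 ± 0.04 for the 90th over the 50th percentile (adjusted p = 0.282, exact permutation test) and by 0.08 ± 0.08 for the 50th over the 10th (adjusted p = 0.329, exact permutation test). Within a plate, genes and totals rose together, with a Spearman correlation across wells of 0.60 to 0.92. The lowest were MCDD 1.1 (0.60), MCDD 2.1a (0.70) and MCDD 2.2 (0.74), followed by ND 1.2 (0.79). Wells of a plate share library and depth, so these are descriptions of plates.

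Wells with few genes were not spread evenly over the plates. Of 736 wells with under 100 genes, 433 lay on ND plates and 303 on MCDD plates. In rows I to P of columns 13 to 24, the lower right block, their share was 19.1% ± 20.5 (SD, n = 9) on ND and 7.29% ± 3.77 (n = 10) on MCDD. In that block the share was 58.3% on ND 2.5, 47.9% on ND 2.6 and 25.0% on ND 2.3, and on MCDD plates at most 14.6%. The difference between diets in that block was -13.4 ± 5.9 points (SE) and did not pass (adjusted p = 0.0915, exact permutation test). On ND 1.3, in contrast, it was 2.08%. ND 1.5 had its highest share, 28.1%, in the upper left block. The wells at D9 and E10 were low on 19 of 19 plates, with medians of 12 and 14 genes, and 81 of the 380 positions were low on no plate.

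Without the lower right block, the difference in the 90th to 10th percentile ratio was -0.54 and did not pass (adjusted p = 0.0627, exact permutation test). In rows A to H it was -0.32 (adjusted p = 0.708, exact permutation test). The difference in wells with at least 500 and under 1000 genes was 6.90 points without that block and kept its call (adjusted p = 0.0265, exact permutation test). The ratio of the 95th percentile to the median differed by -0.33 without that block (adjusted p = 0.000529, exact permutation test). On ND 2.5, ND 2.6 and ND 2.3 the wells with few genes were thus most common in 1 block of the plate. What position adds to the spread beyond these values was not tested.

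**Figure D5:**
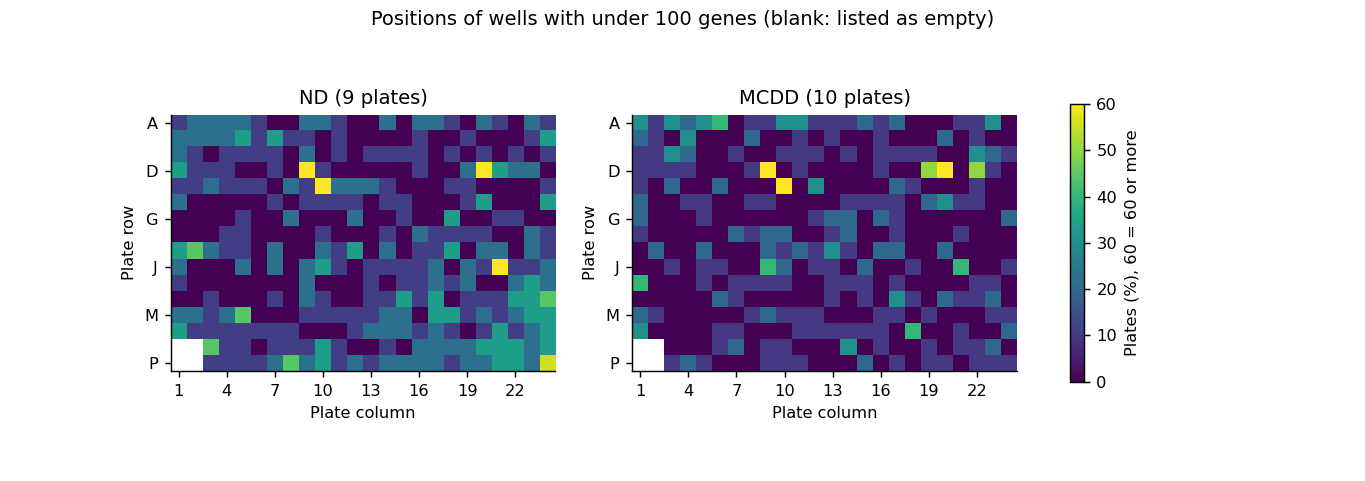
Share of plates (colour, %) on which each position of the 384-well plate had under 100 genes, for 9 ND plates (left) and 10 MCDD plates (right), with plate rows A to P downward and columns 1 to 24 across. In the lower right block the share is 19.1% on ND and 7.29% on MCDD, a difference that did not pass (adjusted p = 0.0915, exact permutation test), and D9 and E10 are low on every plate of both diets.

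The same sort was taken at 4 weeks (8 ND and 10 MCDD plates) and at 8 weeks (10 ND and 10 MCDD plates). At week 8, 2 MCDD plates were in a batch without ND plates, so 8 MCDD plates entered the comparison. The spread, as the log2 ratio of the 90th to the 10th percentile, differed between diets by -0.03 ± 0.17 (SE) at week 4 and was higher on MCDD, by 0.45 ± 0.21, at week 8. The differences at weeks 4 and 8 were not tested on their own, and the permutations between weeks assume no diet effect at either. The week 2 effect differed from that of week 8 by -1.21 (adjusted p = 0.00024, permutation test) and from that of week 4 by -0.74 (adjusted p = 0.0484, permutation test). The difference from week 4 did not pass without the stratification by batch (-0.66, adjusted p = 0.0919, permutation test).

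The ratio of the 95th percentile to the median was lower on MCDD at week 4 too, by -0.31 ± 0.06, but higher at week 8, by 0.33 ± 0.08. The week 2 effect on it did not differ detectably from that of week 4 (-0.05, adjusted p = 0.738, permutation test) and differed from that of week 8 by -0.69 (adjusted p = 6e-05, permutation test). The share with at least 500 and under 1000 genes differed between diets by 3.59 ± 3.10 points at week 4 and 1.78 ± 2.92 at week 8. Neither was detectably different from the 7.67 points of week 2 (adjusted p = 0.374 and 0.184, permutation test). The share itself was unlike between weeks, so the points do not stand on 1 base. It averaged 35.6% on MCDD and 28.3% on ND at week 2, 29.8% and 26.2% at week 4, and 16.0% and 13.5% at week 8. For genes at a given total the week 2 effect differed from those of weeks 4 and 8 by -0.05 and 0.16 (adjusted p = 0.774 for both, permutation test). The week 4 plates lay in SB15 and SB19, both also used at week 2, and the week 8 plates compared lay in SB12, SB16 and a further batch, SB18.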

How the data were processed

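Single leukocytes were sorted into 384-well plates and their polyA RNA was barcoded, pooled per plate and amplified by in vitro transcription, per the labels' protocols. The build was mm10, per the submitters' processing notes, which also name bcl2fastq 2.15.0.4. Aligner, counter and filters: not given in the sources used here. As deposited by the authors, the table gives, per the file headers, a whole-number total count, a number of genes and a number of cells per well. Whether the total counts reads or molecules is not stated. Of 20 listed week 2 plates, 1 ND plate was not analysed here.

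The plate was the replicate. Percentiles over the 380 cell wells were taken on log2(value + 1). Diet differences were weighted by each batch's plates and tested by two-sided exact permutation of diet labels within batch (7560 relabellings, smallest p 0.000132). The SE uses the variance between plates of a batch and diet, with 11 degrees of freedom. Deciles of the total were set within a batch, with at least 5 wells on every plate of the batch. Weeks were compared with 100000 permutations of diet labels within batch and week. Benjamini-Hochberg adjustment was made within each family of measures, and an adjusted p under 0.05 was a call. A plate is named where a result turns on it; the rule for genes named none, since no value per gene was analysed. The wells, measures and lists were chosen with earlier results of these data known. Alternatives were wells with at least 100 genes, all listed wells, other handling of batches, each plate left out, plates paired by number, other bins and other measures of spread. Parts of the plate, wells of middle total, the 95th over the 50th percentile and the week tests other than genes at a given total were added after seeing the data. The tests were checked on simulated plates. Python 3.11.15, numpy 2.4.6, pandas 2.3.3 and matplotlib 3.10.9 were used.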

Additional observations from a re-analysis of the deposited data

Results flagged for a closer look

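Of 42 groups of plates examined for a plate far from the rest, 5 had one, and chance marks about 1 in 20. ND 1.1 had a median of 761 genes in wells with a total of 20000 to 40000, far above the other ND plates, of which the next highest had 515. Among the MCDD plates of its batch, SB16, that median was 657 on 2.1a, 633 on 2.1b, 522 on 2.2 and 370.5 on 1.1. ND 1.1 also had the lowest plate median of the total, 12098, and the difference in genes at a given total was 0.06 without it. ND 2.2 stood out by its empty wells, which had a median of 643.5 genes and a median total of 41045. MCDD 1.1 stood out by its empty wells, which had a median of 53.5 genes and a median total of 64268.5.

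The estimated effect of diet on the spread of genes was not the same at each time. The week 2 effect minus the week 4 effect was -0.74 and minus the week 8 effect -1.21. For the ratio of the 95th percentile to the median, the week 2 effect minus the week 8 effect was -0.69. The adjusted p was 0.0484, 0.00024 and 6e-05 in turn, from 100000 permutations of the diet labels. These permutations assume no diet effect at either week, so they do not test whether 2 effects are equal. The first of these did not pass without the stratification by batch (adjusted p = 0.0919, permutation test).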

How the results depend on the processing

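The ratio of the 95th percentile to the median kept its direction and call in 31 of 31 alternatives with a test, from -0.50 to -0.19 (adjusted p up to 0.0313). The share with at least 500 and under 1000 genes kept its call in 27 of 31. It lost the call in rows A to H (6.44, adjusted p = 0.05, exact permutation test), in columns 1 to 12 (5.96) and in wells of middle total (4.48). It also lost it with the replicate block (8.27, adjusted p = 0.0625, permutation by sign changes). There the smallest possible p was 0.0156, so after adjustment over the 4 classes a class alone at that p could not pass. The 90th over 10th percentile spread kept its call in 25 of 32. It lost it with at least 100 genes (-0.16), with the 75th over 25th percentile (-0.30), in rows A to H (-0.32), in columns 13 to 24 (-0.72), without the lower right block (-0.54), in wells of middle total (-0.041) and with the replicate block (-0.81). It moved to -1.54 in SB12 alone and -0.30 in SB19 alone. The cause was not tested.

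The largest gap in genes passed in rows I to P (11.2 points), with the replicate block (8.83 points) and without ND 1.2 (8.24 points). Leaving out 1 plate at a time it ranged from 5.36 to 8.24 points.

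Genes at a given total, near 0, turned negative with at least 100 genes (-0.023), all listed wells (-0.0024), no stratification (-0.015), SB16 alone (-0.031), SB19 alone (-0.050), the replicate block (-0.11), residuals from a line (-0.0048), means in a bin (-0.015), rows A to H (-0.066), columns 1 to 12 (-0.056) and without the lower right block (-0.020). Leaving out 1 plate at a time it ranged from -0.041 to 0.063. None of its 35 tested alternatives passed.

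The share with at least 100 and under 500 genes, also near 0, turned negative with at least 100 genes (-3.06 points), no stratification (-0.061), SB16 alone (-2.57), SB19 alone (-5.53), the replicate block (-1.58), rows A to H (-0.70), columns 1 to 12 (-0.50), without the lower right block (-1.78), without positions low on most plates (-0.070) and in wells of middle total (-1.19). Leaving out 1 plate at a time it ranged from -1.71 to 1.77 points.

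Other reversals were as follows. With at least 100 genes, the 50th over 10th percentile was 0.13, and the 5th, 10th and 75th percentiles -0.010, -0.046 and -0.012. In SB12 alone the 75th percentile was -0.036. In SB15 alone the share with at least 1000 genes was 1.18 points and the 90th percentile 0.12. In SB19 alone the share under 100 genes was 0.92 points, the 50th over 10th percentile 0.069, and the 5th and 75th percentiles -0.16 and -0.00035. In rows A to H the 75th over 25th percentile was 0.018 and the 25th percentile -0.013. In wells of middle total the 50th over 10th percentile was 0.11, and the 5th and 10th percentiles -0.0098 and -0.051.

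Whether the numbers in the labels pair the plates could not be decided. Over 6 pairs the correlation of deviations from the group means was 0.48 in both SB15 pairs, 0.60 and 0.06 in SB16 and -0.95 in both SB19 pairs. With 2 plates of each diet in SB15 and in SB19, both pairs of such a batch must give the same correlation. The replicate block used 7 pairs and 128 sign changes, with a smallest p of 0.0156. The depth per well limits every gene number, and without values per gene wells could not be thinned to 1 depth.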
